A study of Mus musculus with 40 samples.

Results

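Anergic follicular (FO) B cells were compared with FO B cells of mice that had met the same antigen for 1 day. The comparison used 8 of the 28 RNA-seq libraries, chosen by genotype and cell preparation: 3 anergic and 5 exposed to hen egg lysozyme (HEL). All mice were C57BL/6 and carried MD4, transgenic heavy and light chains of an antibody that binds HEL, and all cells were sorted directly from the animal without culture. The anergic mice also carried ML5, a transgene for soluble HEL, so that their B cells lived with the antigen. Their Ikzf1 genotypes were Ikzf1(fl/fl) in replicate 1, Ikzf1(fl/+) in replicate 2 and Cd23-Cre Ikzf1(fl/+) in replicate 3. The last of these carries Cre, driven by a gene of mature B cells, and can lose 1 allele of Ikzf1, the gene for the zinc finger protein Ikaros. The HEL-exposed mice were Ikzf1(fl/fl) without Cre and received HEL intravenously 1 day before the cells were taken. Beside them stand, as reference levels without a test, 3 libraries of naive FO B cells, MD4 with Ikzf1(fl/+) in 2 of them and Cd23-cre Ikzf1(fl/+) in the other. The labels give no age and do not say that replicates came from separate animals, so part of the spread that the p-values rest on may be technical.

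B cell anergy is a state in which a self-reactive B cell survives but responds poorly to its antigen. In MD4 ML5 mice the B cells bind soluble HEL from the time they mature, and their receptors are continually occupied and partly lost from the surface. In an MD4 mouse without ML5 the cells are naive until HEL is injected, and then receive their first strong receptor signal. Receptor signals reach the nucleus through calcium and NFAT, through MAP kinases and the immediate early genes of the Egr, Nr4a and AP-1 families, and through NF-kB, while Myc drives the growth of activated cells.

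The libraries held 14126570 to 16239933 reads recovered from the values in the anergic group and 16899795 to 20181056 in the HEL group. Levels below are TPM (the length-normalised share of a library's transcripts) divided by a median-ratio factor per library, called scaled TPM, and differences are on log2(scaled TPM + 1), anergic minus HEL, ± the standard error of the limma fit. The log2 correlation was 0.979 to 0.987 between anergic libraries, 0.985 to 0.993 between HEL libraries and 0.962 to 0.982 across the groups. By Y-linked transcripts the 3 anergic libraries, the 3 naive libraries and HEL replicates 4 and 5 were from male mice, and HEL replicates 1 to 3 from female mice. All 12 B cell markers reached 1 scaled TPM in every library, 1 of 12 T cell markers and none of 10 neutrophil markers did, and 12 T cell markers summed to at most 3.39. The summed level of 18 monocyte and macrophage markers was 99.3 in anergic replicate 3, 23.0 and 15.6 in the other anergic libraries, 21.6 to 28.0 in the HEL libraries and 33.8 to 76.6 in the naive ones.

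Of 10491 genes tested, 2505 were called (23.9%): 1073 were higher in anergic cells (10.2%) and 1432 lower (13.6%), and 237 differed at least 2-fold. Calls needed an adjusted p under 0.05 in limma, with Benjamini-Hochberg adjustment over all genes tested. The values of the groups did not overlap in 27.7% of genes. With a term for the sex of the mouse 1353 were called, 550 higher (5.24%) and 803 lower (7.65%), and with the 2 male HEL libraries alone 172 were higher (1.62%) and 213 lower (2.01%). All anergic libraries were male, so the sex term was estimated within the HEL libraries alone. Its differences are then in effect those against HEL replicates 4 and 5, and the 2 fits are not separate checks. The direction of small differences depends on the scaling, because the anergic libraries as deposited had a median log2 difference of 0.23 over all genes, against -0.0071 after scaling. Without scaling 3860 genes were higher (87.2% of the calls, against 42.8% in the scaled data) and 565 lower, or 36.8% and 5.39% of all genes. Without anergic replicate 1 the count fell to 1488, with 6.23% higher and 7.81% lower. The shares higher and lower were 8.51% and 11.1% without anergic replicate 2, and 14.1% and 17.4% without replicate 3. Without HEL replicates 1 to 5 in turn, 7.12%, 7.4%, 8.58%, 7% and 9.3% were higher, and 10.1%, 9.92%, 11.8%, 9.35% and 13.1% lower. Member counts given for these fits below read against those shares, and counts of the main fit against 10.2% higher and 13.6% lower.

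Ikzf1 itself did not pass the test. It was at 262, 278 and 169.5 scaled TPM in the anergic libraries, the last being the one with Cre, and at 211 to 265 in the HEL libraries (log2 difference 0.02 ± 0.15, adjusted p = 0.95). Without anergic replicate 3 the difference was 0.24 (adjusted p = 0.0863). The naive libraries held 138, 207 and 133, of which only the last carries Cre. Ikzf3, the gene for the family member Aiolos, was at 339, 357 and 279 in anergic libraries against 240.1 to 269 (log2 difference 0.32 ± 0.09, adjusted p = 0.027), and it lost its call with the sex term (adjusted p = 0.0631) and without anergic replicate 1 or 2 (0.101 and 0.0732) or HEL replicate 1 or 4 (0.0565 and 0.0639). Ikzf2, the gene for Helios, was below the level tested, at 0.024 to 0.038 and 0 to 0.02 scaled TPM.

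The genes most raised in anergic cells were led by Ndrg1, a gene induced by stress and differentiation and known for its role in T cell anergy. Ndrg1 was at 28.2, 27.0 and 55.9 scaled TPM in the anergic libraries and at 0.99, 1.53, 1.402, 0.89 and 2.23 in the HEL libraries (log2 difference 3.93 ± 0.24, adjusted p = 2.9e-05). It was at 0.58 to 1.16 in naive libraries, so that the HEL and naive libraries were alike low and every anergic library stood far above them. Pcp4, which encodes a small protein that binds calmodulin, was at 16.4, 19.1 and 61.6 against 1.54 to 3.57 (log2 difference 2.98 ± 0.37, adjusted p = 0.00084). Sox4, a transcription factor of early lymphocyte development, was at 17.5, 27.1 and 36.1 against 2.37 to 5.19 (log2 difference 2.55 ± 0.23, adjusted p = 0.00016). In all 3 genes anergic replicate 3, the library with the most macrophage transcripts, had the highest value. Without it the differences were 3.59, 2.39 and 2.31, and all 3 were called.

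Lef1, a Wnt-pathway transcription factor of pro-B cells, was at 7.78, 11.5 and 11.4 against 0.77 to 1.28 scaled TPM (log2 difference 2.49 ± 0.14). Myb, a progenitor factor, was at 4.20, 5.11 and 11.5 against 0.37 to 0.78 (log2 difference 2.26 ± 0.25). Rgl1, which encodes an exchange factor for Ral, was at 40.1, 43.5 and 41.2 against 5.65 to 9.81 (log2 difference 2.35 ± 0.14). The anergic values of Rgl1 lay close together, far above both other groups (3.30 to 4.61 in naive cells). F2rl1, the gene for a protease-activated receptor, was at 10.4, 12.4 and 5.36 against 0.82 to 1.49 (log2 difference 2.21 ± 0.22). Ets2, a transcription factor downstream of Ras signalling, was at 27.6, 34.7 and 22.4 against 6.34 to 7.75 (log2 difference 1.86 ± 0.13). Il9r, the interleukin 9 receptor gene, was at 202, 197 and 168 against 47.2 to 55.5 and 70.6 to 98.0 in naive cells (log2 difference 1.84 ± 0.09, adjusted p = 8.1e-06). Cd93, a marker of transitional B cells, was at 7.96, 7.15 and 9.56 against 1.25 to 2.21 (log2 difference 1.800 ± 0.15). The naming rule also took 2 short gene models, Snord100 (2.06 ± 0.52) and Mir7240 (2.05 ± 0.51), which rest on 3 to 5 and 5 to 7 reads per anergic library, and both lost their call without anergic replicate 1 (adjusted p = 0.0585 and 0.073) and with the sex term (0.0652 and 0.125). PolyA-selected libraries do not measure mature small RNAs.

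**Figure D1:**
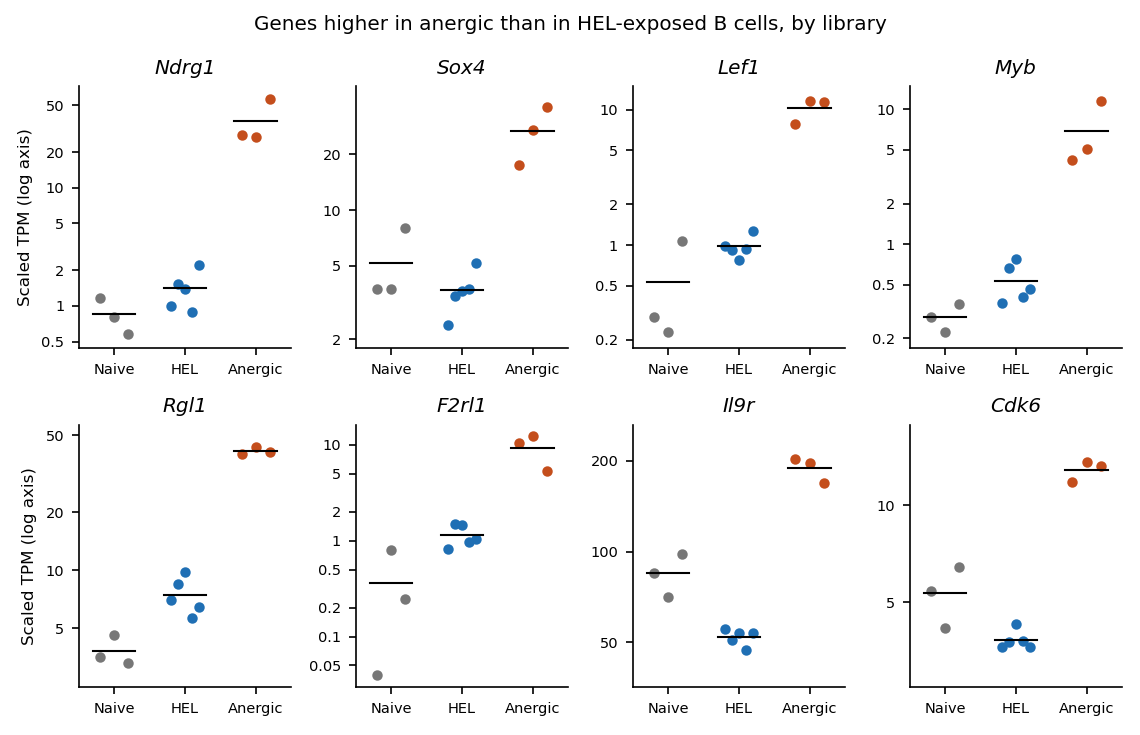
Scaled TPM (log axes that differ between panels) of 8 genes in the naive (grey, 3), HEL-exposed (blue, 5) and anergic (red, 3) libraries, each point 1 library and each bar the mean of its group. The naming rule took genes whose groups do not overlap, and Ndrg1 goes from 0.89 to 2.23 in HEL libraries to 27.0 to 55.9 in anergic ones.

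The immediate early genes were split: Egr1, Egr2, Egr3, Nr4a1, Nr4a3 and Fosb were higher in anergic cells, while Jun and Btg2 were lower. Of 19 tested members 8 were higher, 2 lower and 9 did not pass, with a median log2 difference of 0.20 against -0.0071 over all genes (1 lower without anergic replicates 1 and 2 and HEL replicates 1, 2 and 4, each left out alone). Egr3, a zinc finger factor that restrains lymphocyte activation, was at 213, 266 and 232 scaled TPM in anergic libraries and at 56.7, 61.1, 88.3, 70.9 and 71.5 in HEL libraries (log2 difference 1.76 ± 0.14, adjusted p = 9.1e-05). In naive libraries it was at 11.8 to 16.8, so the 3 groups formed separate levels with anergic cells on top. Egr2, a close relative, showed the same order, at 22.2, 20.1 and 29.6 against 4.09 to 6.93 and 0.87 to 1.97 (log2 difference 1.901 ± 0.17). Egr1, the family member that responds first to growth signals, was at 79.1, 70.9 and 73.8 in anergic libraries and at 19.9 to 35.5 in HEL libraries (log2 difference 1.54 ± 0.16). For Egr1 the HEL range overlapped that of the naive libraries (19.1 to 22.5), while every anergic library held at least 70.9.

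Nr4a1, the gene for the orphan nuclear receptor Nur77, a reporter of receptor signal strength, was at 68.7, 81.4 and 136 against 20.6, 22.6, 27.6, 39.6 and 41.2 scaled TPM, with 6.69 to 12.8 in naive cells (log2 difference 1.61 ± 0.27, adjusted p = 0.0028). Nr4a3, its relative, was at 7.32, 10.7 and 11.3 against 1.68 to 4.41, with 0.24 to 0.45 in naive cells (log2 difference 1.52 ± 0.23). Both held their order over the 3 groups with no overlap between groups. Fosb, a subunit of AP-1, was at 9.51, 7.55 and 6.03 against 0.56 to 2.14 (log2 difference 2.06 ± 0.22, adjusted p = 0.00044). The members that were lower, named after their values were seen, were Jun, at 20.6, 28.1 and 34.1 against 33.4 to 48.3 (log2 difference -0.55 ± 0.16), and the growth inhibitor Btg2 (-0.50 ± 0.11). Neither passed without scaling (-0.30 and -0.24), and Jun did not pass with the sex term (adjusted p = 0.104), without filtering low values (0.0702), or without anergic replicate 1 (a difference of -0.36) or 2 (0.119 and 0.0613) or HEL replicate 1, 2 or 4 (0.0575, 0.0607 and 0.0669). Jund (-0.11 ± 0.12), Junb (0.18 ± 0.14) and Zfp36 (-0.04 ± 0.10) did not pass.

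The stretch of 230 bases before the Nr4a1 start (GRCm38.p6, chr15:101266616-101266845, plus strand, from RefSeq) is shown because it carries 3 copies of TGCGTCA, a sequence close to the cyclic AMP and AP-1 elements. Capitals mark the copies, 5′ to 3′ on the gene's strand.
Nr4a1: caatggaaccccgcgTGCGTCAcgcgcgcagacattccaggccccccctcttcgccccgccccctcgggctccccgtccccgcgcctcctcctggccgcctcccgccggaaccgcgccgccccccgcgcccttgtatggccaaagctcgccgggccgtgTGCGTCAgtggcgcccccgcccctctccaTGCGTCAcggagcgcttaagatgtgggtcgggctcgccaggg
TGCGTCA was searched on both strands in the 250 bases before each start after this promoter had been read. Of 27025 genes in the RefSeq promoter set, 540 held it (2.00%), and 2 of the 19 immediate early genes with one did. The full cyclic AMP element TGACGTCA was in 2 of the same 19 and in 1.77% of all. A match describes letters only.

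The feedback inhibitors that Egr factors and MAP kinase signals induce were higher in part. Of 9 tested genes 4 were higher and 0 lower (median 0.41). Dusp4, a MAP kinase phosphatase, was at 73.1, 92.4 and 46.4 against 19.9 to 28.9 scaled TPM, with 4.01 to 12.1 in naive cells (log2 difference 1.501 ± 0.20, adjusted p = 0.0011). Spry2 and Spred1, inhibitors of the Ras pathway, were lower in level, at 1.04, 1.45 and 1.55 against 0.18 to 0.33 (log2 difference 0.90 ± 0.14) and at 2.73, 2.77 and 3.53 against 1.00 to 1.52 (0.89 ± 0.13). Dusp6 was the other member called (0.74 ± 0.18), and it did not pass without anergic replicate 1 (adjusted p = 0.0501). Nab2, a co-repressor of Egr factors, was at 55.1, 84.1 and 70.9 against 42.2 to 74.6 and did not pass (log2 difference 0.33 ± 0.21). Its HEL levels were well above those of naive cells (8.78 to 12.5), and the files give it an overlap mark (OVL).

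**Figure D2:**
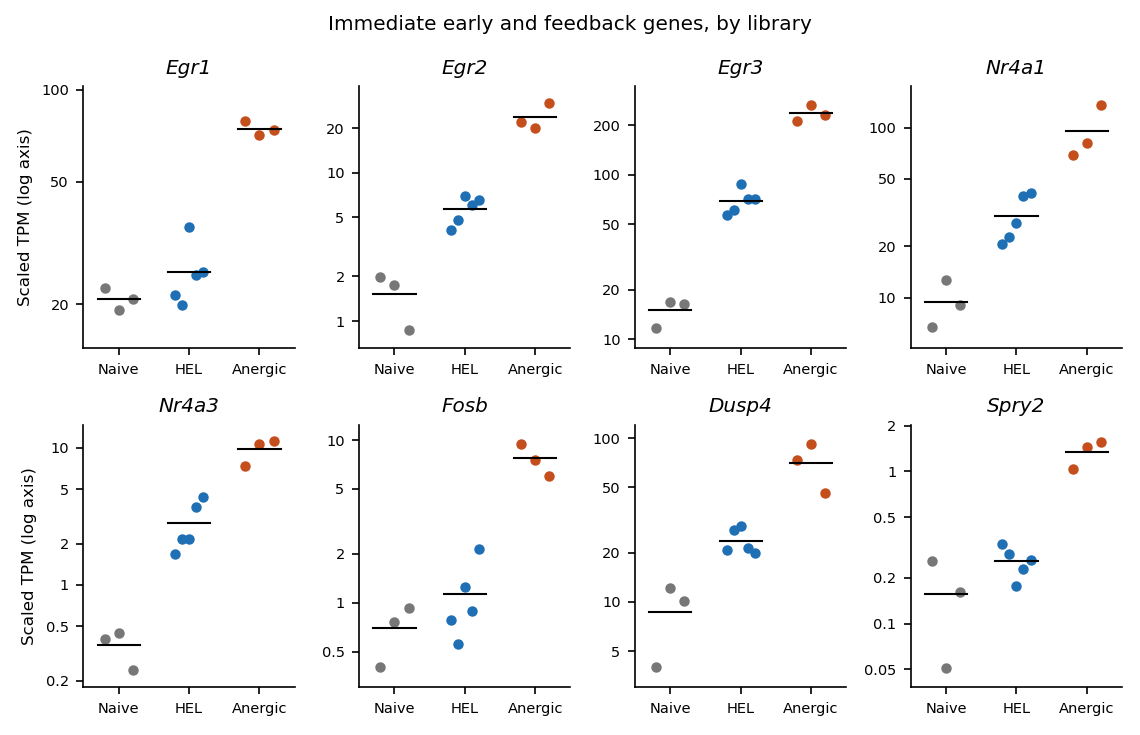
Scaled TPM (log axes that differ between panels) of 8 immediate early and feedback genes in naive (grey, 3), HEL-exposed (blue, 5) and anergic (red, 3) libraries, each point 1 library and each bar a group mean. The genes shown were picked from members called higher, without the lower Jun and Btg2 or members that did not pass. That anergic libraries lie above all HEL libraries in every panel is therefore no further evidence. Egr2, Egr3, Nr4a1, Nr4a3 and Dusp4 are lowest in naive cells.

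Genes for making ribosomes and genes for the ribosome's own proteins differed in direction. Of 28 genes of Myc and ribosome biogenesis 15 were higher in anergic cells and 4 lower (median log2 difference 0.32, and 20 and 1 without scaling). Rrs1, a ribosome assembly factor, was at 47.5, 50.1 and 50.4 scaled TPM in anergic libraries and at 32.0, 33.3, 32.1, 35.4 and 34.3 in HEL libraries (log2 difference 0.55 ± 0.07, adjusted p = 0.00083). Polr1a, the large subunit of RNA polymerase I, was at 29.5, 31.1 and 28.8 against 18.4 to 20.9 (log2 difference 0.56 ± 0.07). Rrp12, which exports pre-ribosomes, was at 24.6, 25.8 and 21.6 against 13.8 to 16.9 (log2 difference 0.65 ± 0.09). Nolc1 (0.53 ± 0.07), Utp20 (0.66 ± 0.09) and Grwd1 (0.53 ± 0.08), all factors of pre-ribosome assembly, differed by similar amounts. Over the whole list the groups did not overlap in 20 of 28 genes, beside 27.7% of all genes. Naive levels were near the anergic ones for Rrs1 (46.8 to 52.2) and Polr1a (26.2 to 29.3). The lower members, named after their values were seen, were the Myc partner Max (-0.32 ± 0.09), the Myc antagonists Mxd4 (-0.83 ± 0.19) and Mxi1 (-0.38 ± 0.10), and Npm1 (-0.50 ± 0.14), which encodes nucleophosmin. Max, Mxi1 and Npm1 did not pass without scaling (-0.06, -0.16 and -0.25), and none of the 4 passed with the sex term (adjusted p = 0.115, 0.0597, 0.066 and 0.106). Mxd4 differed by -0.55 without anergic replicate 1 and Npm1 by -0.29 without anergic replicate 2. Their count depends on single libraries (1, 2, 2 and 2 lower without anergic replicate 1 and HEL replicates 1, 2 and 4 in turn).

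Of 73 genes of cytosolic ribosomal proteins 53 were lower in anergic cells, 0 higher and 20 did not pass, beside 13.6% lower over all genes (median log2 difference -0.64, and -0.38 with 44 lower without scaling). Together the 74 genes listed in the files made up 14.5% to 17.8% of the deposited TPM in anergic libraries, 20.4% to 22.3% in HEL libraries and 13.7% to 14.9% in naive libraries. Rplp0, a protein of the ribosomal stalk, was at 2059, 2167 and 2586 scaled TPM against 4865, 5081, 4329, 5826 and 4546 (log2 difference -1.12 ± 0.12, adjusted p = 0.00043). Its naive values were 1852 to 2044, below the anergic range. The stalk protein gene Rplp2 (-0.91 ± 0.10), Rpl37 (-0.88 ± 0.11) and Rps20 (-0.92 ± 0.11) were lower in anergic libraries too, with HEL libraries above both other groups. Rpl38 (4249.6, 2917 and 4921 against 4799 to 6201, log2 difference -0.49 ± 0.16) and Rps16 (3330.4, 2085 and 4182 against 3233 to 5062, -0.33 ± 0.21) did not pass. For both, anergic replicate 2 was the lowest library and replicate 3 the highest of the anergic group. In each of the 53 lowered genes the naive mean was nearer to the anergic than to the HEL mean, beside 964 of all 1432 lowered genes (67.3%). Ribosomal protein genes have many near-identical pseudogene copies that can share their reads.

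Translation genes were mixed. Of 29 translation factors and aminoacyl-tRNA synthetases 5 were higher and 3 lower (18 and 2 without scaling, and 3, 2 and 2 higher without anergic replicate 1 and HEL replicates 1 and 2 in turn). The elongation factor genes Eef2, at 3719, 4443 and 3707 against 5406 to 6702 (log2 difference -0.64 ± 0.11), and Eef1a1 (-0.72 ± 0.16, adjusted p = 0.0901 without the filter on low values) were lower, like the ribosomal proteins. The tRNA synthetase genes Iars (0.37 ± 0.07) and Eprs (0.46 ± 0.10) were higher.

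Several genes that bring in amino acids were higher in anergic cells. Of 15 genes of amino acid transport and one-carbon synthesis 8 were higher and 1 lower (median 0.42, and 2 lower without anergic replicate 3). Slc38a1, a glutamine transporter, was at 91.0, 90.5 and 66.8 against 42.6 to 49.8 scaled TPM, with 41.6 to 46.3 in naive cells (log2 difference 0.84 ± 0.11, adjusted p = 0.001). Slc7a1, a transporter of cationic amino acids, was at 26.7, 30.7 and 23.9 against 12.8 to 16.6, with 27.6 to 29.3 in naive cells (log2 difference 0.82 ± 0.10). Slc38a1 thus stood above both other groups, whereas Slc7a1 was low in HEL cells alone. Slc7a5, the light chain of the large neutral amino acid transporter, was at 25.2, 26.3 and 26.2 against 13.0 to 18.7 (log2 difference 0.72 ± 0.12). The folate enzymes Shmt1 (0.76 ± 0.12) and Mthfd1 (0.47 ± 0.09) were also higher.

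Mitochondrial genes leaned the other way, and here the scaling decides how many pass. Of 37 oxidative phosphorylation genes 16 were lower and 0 higher (median -0.28), but 5 were lower and 2 higher without scaling (median -0.02). The count also moved with single libraries (6, 26, 10, 9 and 9 lower without anergic replicates 1 and 3 and HEL replicates 1, 2 and 4 in turn). Atp5c1 of the ATP synthase was at 158, 142 and 195 against 227 to 253 (log2 difference -0.57 ± 0.10), and Cox4i1 of complex IV was lower too (-0.59 ± 0.12). Glycolysis genes showed 2 higher and 5 lower of 22, which became 9 and 2 without scaling, with 1, 4, 1, 1, 1, 1 and 1 higher without anergic replicates 1, 2 and 3 and HEL replicates 1, 2, 4 and 5 in turn, and 2, 2, 3 and 2 lower without anergic replicates 1 and 2 and HEL replicates 3 and 4 in turn. Gpi1, an early enzyme of glycolysis, was at 277, 299.8 and 276 against 442 to 544, with 269.6 to 282 in naive cells (log2 difference -0.82 ± 0.09). Slc16a1, a lactate and pyruvate transporter, was at 8.93, 9.32 and 11.7 against 3.63 to 4.70 (log2 difference 1.10 ± 0.11). Both kept their direction and call without scaling (-0.57 and 1.32).

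**Figure D3:**
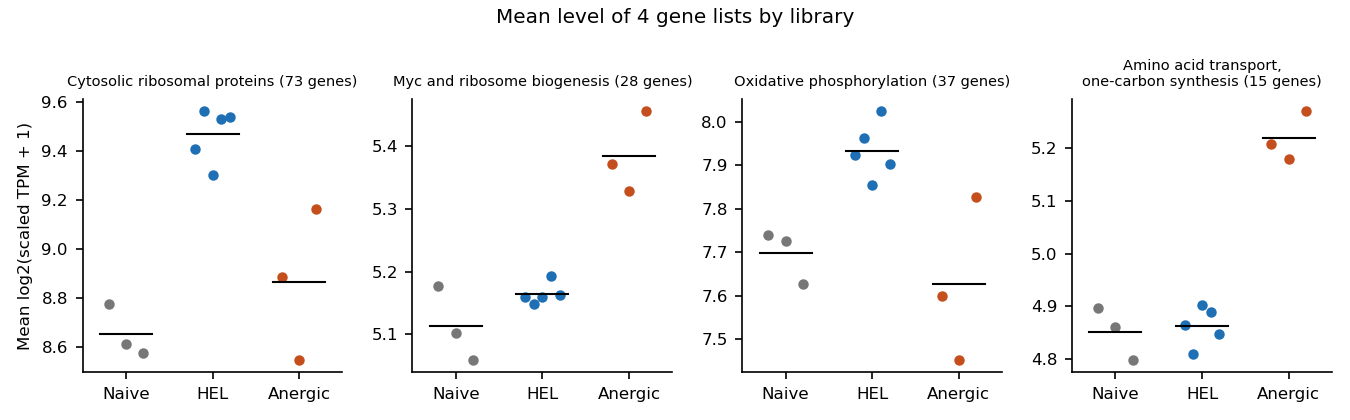
Mean log2(scaled TPM + 1) over the tested members of 4 gene lists in each naive (grey), HEL-exposed (blue) and anergic (red) library, with bars at group means and axes that do not start at 0. Ribosomal protein genes stand at 8.55 to 9.16 in anergic and 9.30 to 9.56 in HEL libraries, while both biosynthesis lists are highest in anergic libraries.

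Most of the genes with the largest decreases in anergic cells were interferon-stimulated genes, which type I interferon switches on. Of the 36 that were tested, 32 were lower and 0 higher, beside 13.6% lower over all genes (median log2 difference -1.89). Isg15, which encodes a ubiquitin-like modifier, was at 12.2, 9.35 and 27.4 scaled TPM in anergic libraries and at 338, 198, 151, 186 and 40.9 in HEL libraries (log2 difference -3.27 ± 0.57, adjusted p = 0.0037). The naive libraries held 31.7 to 38.6, so that HEL replicate 5 stood just above the naive level and HEL replicates 1 to 4 were far above it. Irf7, the factor that amplifies the response, was at 17.5, 19.7 and 29.1 against 285, 158, 129, 145 and 36.6, with 53.0 to 58.8 in naive cells (log2 difference -2.49 ± 0.51).

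The promoters of 4 such genes are shown because they carry the core letters of the interferon-stimulated response element, the site of the interferon factor complex (GRCm38.p6, from RefSeq, gene strand, 5′ to 3′, ending at the base before the start). Capitals mark GAAA, any 2 bases and GAAA again, or the reverse complement, where overlapping matches run together. They lie at chr4:156200819-156200948, minus strand for Isg15, chr19:34640719-34640888, plus strand for Ifit1, chr19:34583359-34583528, plus strand for Ifit3 and chr5:120777660-120777789, minus strand for Oas3.
Isg15: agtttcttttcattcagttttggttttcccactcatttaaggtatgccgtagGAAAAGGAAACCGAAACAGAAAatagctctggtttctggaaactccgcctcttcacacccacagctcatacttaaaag
Ifit1: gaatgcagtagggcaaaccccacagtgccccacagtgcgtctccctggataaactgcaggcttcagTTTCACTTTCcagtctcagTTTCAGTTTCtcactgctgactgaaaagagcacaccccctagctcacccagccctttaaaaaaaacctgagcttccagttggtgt
Ifit3: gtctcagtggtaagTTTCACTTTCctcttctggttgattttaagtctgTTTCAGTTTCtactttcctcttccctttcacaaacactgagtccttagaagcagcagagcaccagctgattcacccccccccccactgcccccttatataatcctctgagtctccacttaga
Oas3: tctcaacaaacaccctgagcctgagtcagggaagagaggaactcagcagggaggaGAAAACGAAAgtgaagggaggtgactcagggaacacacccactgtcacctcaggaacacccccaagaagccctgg
This element, chosen after the data were seen, was searched on both strands of the 250 bases before each start. It was in 15 of the 28 interferon-stimulated genes with a promoter in that set (53.6%) and in 3.46% of all 27025 genes. Ifit1, an inhibitor of viral translation, was at 0.78, 0.43 and 1.64 against 26.2, 11.0, 10.3, 11.8 and 2.74 (log2 difference -2.57 ± 0.50). Ifit3, its partner, was at 3.51, 1.404 and 8.15 against 82.4, 44.5, 32.8, 32.7 and 9.91 (log2 difference -2.89 ± 0.58). Oas3, which makes an activator of RNase L, was at 3.74, 3.12 and 7.32 against 109, 56.7, 48.9, 48.1 and 8.90 (log2 difference -2.99 ± 0.61). In all 3 genes HEL replicate 1 was the highest and HEL replicate 5 the lowest of its group.

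Further members moved alike. Oas1a (-2.77 ± 0.52), Oasl1 (-2.52 ± 0.42), Xaf1 (-2.66 ± 0.44), Usp18 (-2.47 ± 0.51), Rtp4 (-2.42 ± 0.46) and Mx1 (-2.38 ± 0.48) were each lower. The naming rule took only genes whose groups do not overlap, and over the whole list 21 of 36 did not, beside 27.7% of all genes. Ifi27l2a, which carries the overlap mark, was at 189, 145 and 401 against 2306, 2293, 1443, 1666 and 612 (log2 difference -2.75 ± 0.44). The naive mean lay nearer to the anergic than to the HEL mean in 26 of the 32 lowered genes (81.2%), beside 964 of all 1432 lowered genes (67.3%).

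HEL replicate 5 was the lowest HEL library for this group of genes, and the calls changed with the sex term. HEL replicate 4, also male, was at the level of female HEL replicate 3. The mean level of the list on log2(scaled TPM + 1) was 6.46, 5.85, 5.66, 5.64 and 4.36 in HEL replicates 1 to 5, 3.804, 3.48 and 4.22 in the anergic libraries and 4.37 to 4.47 in naive ones. Without HEL replicate 5, 35 members were lower (median -2.26). The count was 19 without anergic replicate 1 and 19 without anergic replicate 2, with medians of -1.900 and -1.68. The sex term left 10 lower (median -1.12). Isg15 kept its call with that term (-2.497, adjusted p = 0.032), and Irf7 (-1.72, adjusted p = 0.057), Ifit3 (0.0556), Oas3 (0.0568) and Usp18 (0.0589) did not. With the 2 male HEL libraries alone, of which replicate 5 is 1, 1 member was lower (median -1.16). The differences of the sex-term fit rest on the same 2 HEL libraries, so it is not a separate check.

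**Figure D4:**
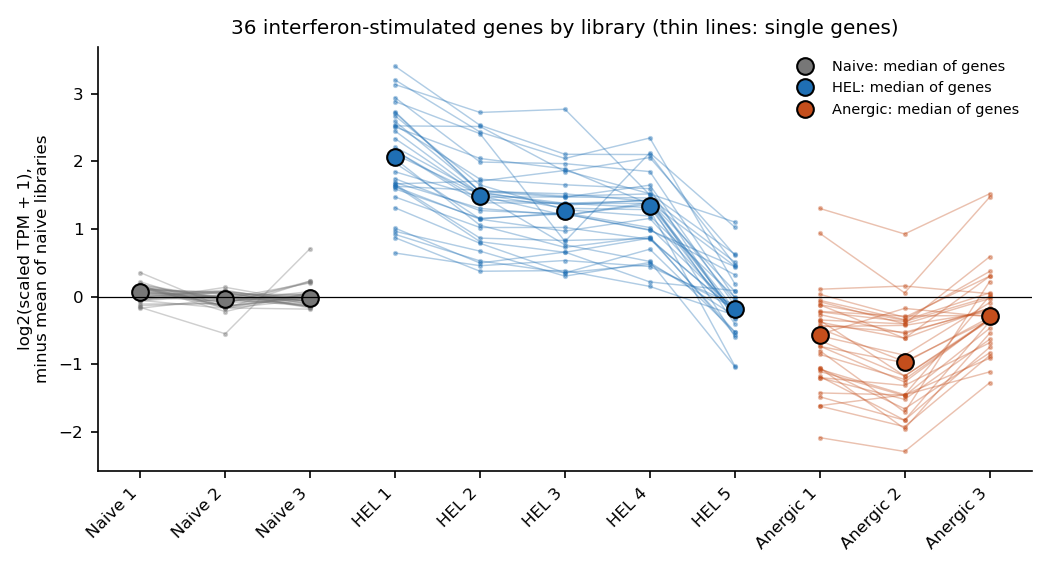
Level of 36 interferon-stimulated genes in each library as log2(scaled TPM + 1) minus the gene's mean in the 3 naive libraries, with 1 thin line per gene and a large circle at the median of the genes. HEL libraries 1 to 4 stand above naive cells, HEL library 5 is near them and the 3 anergic libraries are below.

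Some of the most lowered genes are not on the interferon list. Rgs10, a brake on G protein signalling, was at 8.43, 4.49 and 12.2 scaled TPM in anergic libraries and at 86.7, 72.7, 63.9, 62.7 and 31.1 in HEL libraries (log2 difference -2.80 ± 0.33, adjusted p = 0.00069). Naive cells held 3.75 to 6.55, so that all 5 HEL libraries stood above both other groups. Alox5ap, which serves leukotriene synthesis, was at 3.82, 3.15 and 11.1 against 41.7, 36.8, 48.0, 50.1 and 28.8, with 16.5 to 38.6 in naive cells (log2 difference -2.73 ± 0.31). There the anergic libraries were the ones that stood apart. Sdc3, the gene for a cell surface proteoglycan, was at 4.99, 3.72 and 9.01 against 107, 62.8, 57.5, 48.96 and 12.4, with 14.6 to 20.8 in naive cells (log2 difference -2.89 ± 0.54), and among HEL libraries it was highest in replicate 1 and lowest in replicate 5. Bst2, an antiviral membrane protein on the dendritic cell list, differed less, at 69.3, 63.9 and 99.4 against 111 to 400.3 (log2 difference -1.59 ± 0.33). Like the interferon-stimulated genes, Bst2 was highest in HEL replicate 1 and lowest in HEL replicate 5 among HEL libraries. It did not pass with the sex term (adjusted p = 0.0682).

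Several transcripts of early B cell stages were higher in anergic than in HEL-exposed cells, and the naive libraries lay between them in mean level. The mean of the list on log2(scaled TPM + 1) was 3.82 to 4.47 in anergic, 2.87 to 3.18 in HEL and 3.40 to 3.88 in naive libraries. The naive mean was nearer to the anergic than to the HEL mean in 3 of the 6 raised members, beside 57.2% of all raised genes. Of 11 tested members of the transitional and precursor list 6 were higher and 0 lower, beside 10.2% higher over all genes (median 0.83, but 0.52 without anergic replicate 3 and 0.25 over the 16 members that enter without the filter on low values). Besides Lef1, Sox4, Myb and Cd93 these were Erg, an Ets factor of progenitors, at 2.46, 2.03 and 2.34 against 0.36 to 0.86 scaled TPM (log2 difference 1.05 ± 0.15), and Vpreb3, a chaperone of early B cells. Vpreb3 was at 309, 372 and 556 against 218 to 259, but the naive libraries held 706 to 840.2, more than either group (log2 difference 0.75 ± 0.16, adjusted p = 0.0608 with the sex term). For Erg the anergic range overlapped the naive one (1.15 to 3.10), whereas Lef1 and Myb were at 0.23 to 1.07 and 0.22 to 0.36 there. Of the 17 genes on the list, those that missed the filter on low values were not tested.

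Most B cell transcription factors that passed were also higher. Of 27 tested genes 14 were higher and 1 lower (median 0.34), with 21 and 1 without scaling and 10 and 1 with the sex term. Pou2af1, the coactivator OCA-B, was at 631, 672 and 594 against 414 to 511 scaled TPM (log2 difference 0.48 ± 0.09). Satb1, a chromatin organiser, was at 65.3, 69.6 and 62.9 against 47.5 to 53.1 (log2 difference 0.37 ± 0.07). Foxo1, a factor of resting B cells that Akt inhibits, was at 126, 143 and 121 against 87.6 to 104 (log2 difference 0.44 ± 0.08). Id2, an inhibitor of E proteins, was the member that was lower, at 4.37, 2.47 and 5.68 against 7.57 to 11.7, with 15.3 to 20.1 in naive cells (log2 difference -1.02 ± 0.20). Pax5 (0.18 ± 0.12) and Irf8 (0.22 ± 0.11) did not pass.

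Genes of the receptor's own signalling chain went both ways, with a median log2 difference of -0.01 against -0.0071 over all genes. Their counts read against 10.2% higher and 13.6% lower over all genes. Of 37 members 4 were higher and 7 lower, against 15 and 1 without scaling, with 2, 2, 1 and 2 higher without anergic replicates 1 and 2 and HEL replicates 1 and 4 in turn, and 4 lower without anergic replicate 1 and HEL replicates 1, 2 and 4, each left out alone. Rasgrp3, which activates Ras in B cells, was at 89.2, 81.5 and 85.5 against 49.3 to 66.3 scaled TPM (log2 difference 0.57 ± 0.10). Dapp1, an adaptor that binds PI3K products, was at 33.1, 37.1 and 31.5 against 43.4 to 50.7 (log2 difference -0.47 ± 0.08, and -0.21 without scaling, where it did not pass). Cd79a, the signalling chain of the receptor, was at 6389.7, 7499.8 and 6434 against 7811 to 8707 and did not pass (log2 difference -0.27 ± 0.10). The IgD heavy chain (listed as IGHD, chosen after its values were seen) was at 4769, 3657 and 4276 against 2428 to 2819, with 1071 to 2187 in naive cells (log2 difference 0.65 ± 0.10). The MD4 transgene itself encodes IgM and IgD, and the files do not separate it from the endogenous genes.

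Inhibitory receptors were split evenly, with 16 of 32 above and 16 below 0 (median -0.001). Of 32 inhibitory receptors and phosphatases 2 were higher and 7 lower, against 13 and 5 without scaling (4 higher without anergic replicate 3). Fcgr2b, the inhibitory Fc receptor, was at 81.6, 84.5 and 79.9 against 119 to 144 scaled TPM, with 108 to 112 in naive cells (log2 difference -0.68 ± 0.08, adjusted p = 0.00084). Fcrla, an Fc receptor-like protein of the cell interior, was at 484, 437 and 535 against 750.3 to 859 (log2 difference -0.75 ± 0.09). Ceacam1 (-0.65 ± 0.10) and Sla (-0.73 ± 0.11), which dampens receptor signals, were lower too. Ubash3b, a phosphatase that acts on Syk, was higher, at 17.7, 15.98 and 16.04 against 7.82 to 11.0, with 6.01 to 6.86 in naive cells (log2 difference 0.81 ± 0.11). The direction of these 5 genes held without scaling.

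Of 25 calcium and NFAT genes 7 were higher and 1 lower (median 0.12, and 4, 4 and 3 higher without anergic replicate 2 and HEL replicates 2 and 4 in turn, and 2 lower without anergic replicate 2). With the sex term 2 were higher and 0 lower, beside 5.24% higher over all genes, and the median was 0.05 without anergic replicate 2 and 0.23 without replicate 3. Ppp3ca, a catalytic subunit of calcineurin, was at 165, 173 and 149.7 against 117 to 133 (log2 difference 0.39 ± 0.08, adjusted p = 0.0522 with the sex term). Nrgn, which like Pcp4 binds calmodulin, was at 74.0, 92.5 and 225 against 50.7 to 63.3, with 7.21 to 8.37 in naive cells (log2 difference 1.01 ± 0.29). Anergic replicate 3 was its highest library (the difference was 0.53 without it), and its call was lost without HEL replicate 2 or 4 (adjusted p = 0.0591 and 0.0589) and with the sex term (0.0869).

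NF-kB inhibitors and targets were among the genes that were higher. Of 31 genes 8 were higher and 4 lower (18 and 1 without scaling, with 1, 2 and 1 lower without anergic replicate 1 and HEL replicates 1 and 4 in turn). Lta, the lymphotoxin gene, was at 74.6, 86.8 and 65.2 against 36.1 to 39.1 scaled TPM, with 67.9 to 85.8 in naive cells (log2 difference 0.97 ± 0.09, adjusted p = 0.00021). Nfkb2, the subunit of the alternative pathway, was at 304, 400.3 and 325 against 207 to 227 (log2 difference 0.65 ± 0.09). The inhibitors Tnfaip3, at 31.4, 37.9 and 28.6 against 17.2 to 24.0 (log2 difference 0.68 ± 0.12), and Nfkbia (0.47 ± 0.10, adjusted p = 0.0753 with the sex term) were higher, as was Birc3 (0.69 ± 0.11). Traf1, an adaptor that NF-kB induces, was lower, at 47.7, 44.1 and 34.99 against 56.2 to 80.6 (log2 difference -0.73 ± 0.13). For Lta, Nfkb2 and Nfkbia the HEL libraries were also below the naive ones (331 to 375 for Nfkb2 and 435 to 462 for Nfkbia). Lta and Nfkb2 carry the overlap mark, as do Bhlhe40, Notch1, Plxnb2, Il10ra and Irs2 below.

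Of 26 tested genes linked to lymphocyte anergy 11 were higher and 5 lower (median 0.32, and 0.20 without anergic replicate 1, with 3 lower without anergic replicates 1 and 2 and HEL replicates 1, 2, 3 and 4, each left out alone). The list was drawn up with results of these data known, so its direction is no independent evidence. Bhlhe40, a repressor that receptor signals induce, was at 24.5, 24.8 and 40.2 against 10.02 to 14.4 scaled TPM, with 4.08 to 9.53 in naive cells (log2 difference 1.17 ± 0.18). Slfn2, which keeps lymphocytes quiescent, was lower, at 222, 201 and 280.2 against 412 to 572, with 213 to 267 in naive cells (log2 difference -1.09 ± 0.14). Slfn2 was thus higher in HEL cells than in both other groups.

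Costimulatory and survival genes moved singly. Of 20 activation and costimulation genes 3 were higher and 4 lower (1 higher without anergic replicate 1 and HEL replicates 2 and 4, each left out alone). Cd86, a ligand for T cell costimulation, was at 10.4, 5.70 and 12.3 against 30.3, 23.0, 21.9, 23.3 and 14.5 (log2 difference -1.20 ± 0.24), and its sex-term p was 0.0598 after adjustment. Cd48 (-0.57 ± 0.12) and Tnfrsf18, the gene for GITR (-0.64 ± 0.13), were lower, and Slamf1 (0.64 ± 0.10) was higher. Of 21 survival and death genes 3 were higher and 3 lower (1 higher without anergic replicate 2 and HEL replicates 1 and 2, each left out alone, and 1, 5 and 1 lower without anergic replicates 1 and 3 and HEL replicate 4 in turn). Bcl2, the survival factor, was at 44.95, 47.6 and 43.0 against 23.8 to 33.9, with 14.7 to 18.8 in naive cells (log2 difference 0.67 ± 0.11, adjusted p = 0.0027). For Bcl2 the groups followed the order naive, HEL, anergic without overlap.

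Single cytokine receptors set the anergic libraries apart. Il6ra, the interleukin 6 receptor chain, was at 19.7, 23.1 and 21.7 against 40.9, 37.95, 35.9, 39.3 and 42.2 scaled TPM, with 38.6 to 43.2 in naive cells (log2 difference -0.84 ± 0.08, adjusted p = 0.00024). Il21r was at 397, 448 and 417 against 265 to 306, with 287 to 317 in naive cells (log2 difference 0.59 ± 0.08). The anergic libraries therefore stood apart in both, low for Il6ra and high for Il21r. Il4ra was higher (0.45 ± 0.10, adjusted p = 0.0503 with the sex term), and Il10ra was lower (-0.40 ± 0.06) but did not pass without scaling (-0.14). Of 25 members of the list 4 were higher and 5 lower (12 and 2 without scaling, with 2 lower without anergic replicate 1). Il12a, a cytokine subunit shared by interleukins 12 and 35, was at 37.6, 30.5 and 39.7 against 11.2 to 14.7, with 13.1 to 21.8 in naive cells (log2 difference 1.37 ± 0.12, adjusted p = 0.00013).

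Among homing genes S1pr3, a sphingosine phosphate receptor of marginal zone B cells, was at 4.99, 3.93 and 6.16 against 1.07 to 2.10 scaled TPM (log2 difference 1.26 ± 0.16). Ccr6, a chemokine receptor, was at 206, 182 and 182 against 115 to 136 (log2 difference 0.57 ± 0.08). Itgam, the integrin alpha M gene, was at 0.28, 0.58 and 1.08 against 2.31 to 3.65 (log2 difference -1.28 ± 0.18), and Itgb7 was lower as well (-0.69 ± 0.17), with -0.43 without anergic replicate 3, but did not pass without scaling (-0.43) or with the sex term (adjusted p = 0.0516). Of 23 homing receptors and integrins 2 were higher and 5 lower, or 4 and 1 without scaling, with 4 higher without anergic replicate 3, and 3 lower without anergic replicate 1 and HEL replicates 1 and 3, each left out alone. Of 24 genes of Toll-like receptor signalling 2 were higher and 6 lower (8 and 4 without scaling, with 1 higher without anergic replicate 1 and HEL replicates 1, 2, 4 and 5, each left out alone). Myd88, the common adaptor, was at 53.7, 58.3 and 57.4 against 70.7 to 94.9 (log2 difference -0.56 ± 0.09), and Irak2, a downstream kinase, was at 81.4, 82.1 and 71.3 against 52.1 to 60.9 (log2 difference 0.52 ± 0.08). Class II presentation genes gave 3 higher and 4 lower of 17 (8 and 0 without scaling, with 1 higher without anergic replicate 1 and HEL replicates 2 and 4, each left out alone, and 0, 1, 1, 1 and 1 lower without anergic replicates 1 and 2 and HEL replicates 1, 2 and 4 in turn). Ifi30, a lysosomal reductase for antigen processing, was at 717, 813 and 1133 against 455 to 673, both below naive cells at 1471 to 1768 (log2 difference 0.62 ± 0.16, adjusted p = 0.0687 with the sex term).

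Few cell cycle genes passed. Of 35 tested members 1 was higher and 5 lower (11 and 2 without scaling, with 3 and 8 lower without anergic replicates 2 and 3 in turn). Cdk6, a kinase of G1, was the higher one, at 11.9, 13.7 and 13.2 against 3.64, 3.77, 4.29, 3.79 and 3.63 scaled TPM, with 4.16 to 6.46 in naive cells (log2 difference 1.53 ± 0.09, adjusted p = 2.4e-05). Aurkb, a mitotic kinase, was at 7.29, 6.48 and 10.1 against 13.1 to 18.8 (log2 difference -0.98 ± 0.14), and Ccne1, the cyclin of S phase entry, was at 5.57, 5.91 and 4.96 against 8.56 to 10.5 (log2 difference -0.69 ± 0.10). Of 21 genes of cholesterol synthesis and uptake 16 had a positive and 5 a negative difference (median 0.15). The calls gave 1 higher and 5 lower, and 11 and 1 without scaling (7, 2 and 2 higher without anergic replicate 3 and HEL replicates 3 and 4 in turn, and 3 lower without anergic replicate 1). Ebp, a late enzyme of cholesterol synthesis, was at 46.2, 51.9 and 60.5 against 71.1 to 81.6 (log2 difference -0.55 ± 0.09). Npc2, which moves cholesterol out of lysosomes, was at 87.6, 81.7 and 109.8 against 131 to 193, with 81.4 to 86.8 in naive cells (log2 difference -0.91 ± 0.14).

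Counts in the secretory and remaining lists read against 10.2% higher and 13.6% lower over all genes. Of 19 plasma cell genes 3 were higher and 4 lower (1 higher without HEL replicates 1 and 4, each left out alone, and 2 lower without anergic replicate 1). Mzb1, a chaperone of antibody assembly, was at 498, 425 and 509 against 723 to 897 scaled TPM (log2 difference -0.78 ± 0.10), and Fkbp11 was lower too (-0.72 ± 0.13). On the separate list of plasma cell markers 1 of 3 tested was higher and 0 lower (2 positive differences, 1 negative). Sdc1 was at 7.44, 12.9 and 12.0 against 5.28 to 8.00, with 0.31 to 0.37 in naive cells. Prdm1 was at 0.68, 0.68 and 1.05 against 0.23 to 0.41, and Igj at 1.96, 0.59 and 0.72 against 0.68 to 2.00. Of 22 unfolded protein response genes 3 were higher and 1 lower, among them Hyou1, an endoplasmic reticulum chaperone (0.47 ± 0.11). Of 12 heat shock genes 2 were lower (1 and 4 lower without anergic replicate 1 and HEL replicate 3 in turn), and Hspa8 was at 163, 266 and 419.7 against 431 to 622 (log2 difference -1.07 ± 0.25, adjusted p = 0.0577 with the sex term). Of 16 marginal zone and Notch genes 4 were higher and 3 lower (2 higher without anergic replicate 1 and HEL replicates 2 and 4, each left out alone), with Notch1 at 16.3, 21.9 and 17.4 against 23.5 to 36.6 (-0.78 ± 0.15) and Plac8 at 496, 183 and 847 against 1127 to 2080.0 (-1.94 ± 0.40, -1.34 without anergic replicate 2, and adjusted p = 0.0582 with the sex term). The germinal centre list had 3 of 12 higher (1 higher without anergic replicate 1 and HEL replicates 1, 3 and 4, each left out alone), including Plxnb2 (0.57 ± 0.10).

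In the list of PI3K, Akt and Foxo targets 4 of 22 were higher and 2 lower (2 higher without anergic replicate 2 and HEL replicates 1 and 4, each left out alone). Irs2, an adaptor of insulin signalling that Foxo factors induce, was at 37.9, 51.3 and 41.8 against 19.9 to 27.1 (log2 difference 0.85 ± 0.12), and Pik3ip1, an inhibitor of PI3K, was at 39.5, 42.8 and 41.2 against 51.9 to 59.2 (log2 difference -0.41 ± 0.07, and -0.15 without scaling, where it did not pass). Of 16 TGF-beta and Wnt components 5 were higher and 0 lower, with Tle3, a Groucho co-repressor, at 103, 141 and 98.8 against 74.5 to 84.4, below the naive 211 to 219.5 (log2 difference 0.50 ± 0.11, adjusted p = 0.0739 with the sex term). The cholesterol efflux list had 1 higher and 1 lower of 8, and the list of cytokines and chemokines 2 and 2 of 14 (0, 1, 1, 0 and 0 lower without anergic replicate 1 and HEL replicates 1, 2, 3 and 4 in turn).

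The sex term lowered the count of calls in many lists, as it did over all genes. Higher and lower calls with it were 10 and 0 for Myc and ribosome biogenesis, 5 and 0 for amino acid transport, 0 and 7 for oxidative phosphorylation, 3 and 3 for the receptor signalling chain and 4 and 1 for NF-kB. They were 2 and 2 for cytokine receptors, 2 and 2 for Toll-like receptor signalling, 9 and 2 for the anergy list and 2 and 0 for TGF-beta and Wnt components.

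**Figure D5:**
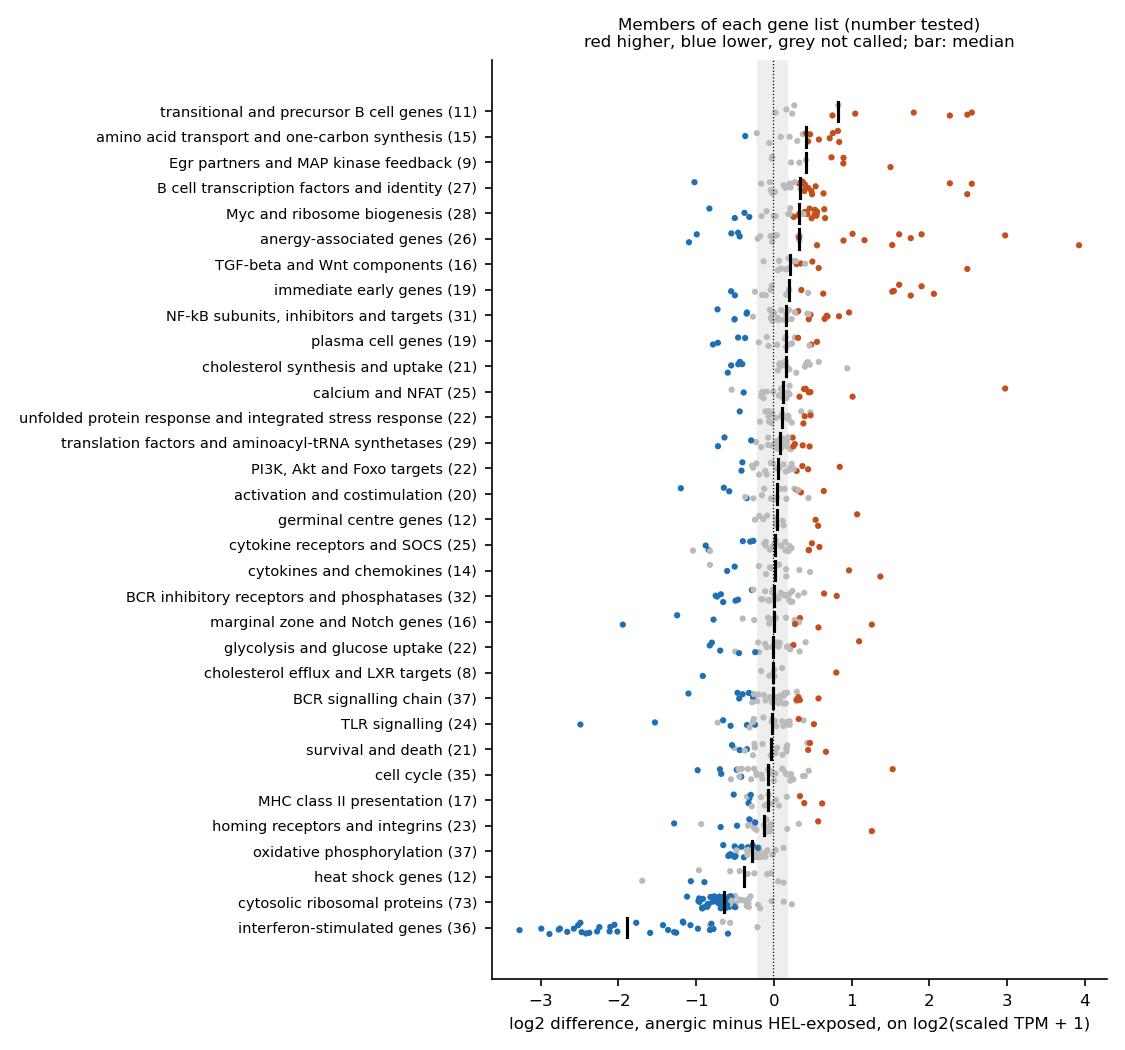
Log2 difference, anergic minus HEL-exposed, of every tested member of 33 gene lists, with 1 point per gene and the number tested in brackets; the grey band spans the middle 50% of all genes and the dotted line their median. Interferon-stimulated genes (median -1.89) and ribosomal proteins (-0.64) lie lowest. The precursor genes have a median of 0.83, which is 0.52 without anergic replicate 3 and 0.25 without the filter on low values.

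Markers of other cell types were checked for their own differences. Of 10 tested monocyte and macrophage markers 2 were higher and 2 lower (6 positive differences, 4 negative). The defining C1qa was at 1.68, 0.52 and 14.6 scaled TPM in the anergic libraries. The HEL libraries held 0.82 to 1.68 and the naive ones 4.57 to 11.7. Not all of these markers were high in anergic replicate 3 alone. Emr1 was at 1.23, 1.072 and 2.294 in the anergic libraries against 0.303 to 0.547 in the HEL libraries. Spic was at 4.494, 5.322 and 2.9 against 1.404 to 3.286. Ccl6 went the other way, at 1.348, 0.703 and 1.352 against 1.745 to 2.194, as did Itgam above. The single NK cell marker tested, Prf1, the perforin gene, was at 18.1, 19.7 and 15.1 against 10.1 to 13.2 (log2 difference 0.55 ± 0.11), while the defining Ncr1 and Gzma were at 0 in every library. At low levels, Klrd1 was at 0.42, 0.26 and 0.50 against 0 to 0.25, and Nkg7 at 0.15, 0.14 and 0.13 against 0 to 0.12. Klrb1c leaned the other way, at 0.18, 0.085 and 0.29 against 0.21 to 0.77. Without the filter on low values 3 of 6 NK cell markers were higher and 0 lower, beside 1012 higher of all 17165 genes. Of 6 tested erythroid and megakaryocyte markers 2 were higher, with summed levels of 9.16 to 20.7 against 5.09 to 10.5. Car2, a carbonic anhydrase, was at 8.38, 10.4 and 3.50 against 1.71 to 3.08 (log2 difference 1.19 ± 0.26) and did not pass without anergic replicate 1 (adjusted p = 0.0539). On the dendritic cell list Ly6d, which B cells also express, was at 3499, 4142 and 4965 against 5596 to 8101 (log2 difference -0.74 ± 0.14, adjusted p = 0.0526 without the filter). Siglech, Xcr1 and Clec9a stayed below 1 scaled TPM. Flt3 and Zbtb46, also on that list, were above 1 in every library and did not pass. Flt3 was at 3.804, 3.344 and 3.777 against 2.905 to 6.552, with 7.795 to 19.649 in naive cells. Zbtb46 was at 1.451, 1.447 and 1.845 against 1.036 to 1.968, with 1.006 to 1.303 in naive cells. In bulk libraries fewer cells of a type and less RNA per cell cannot be told apart. The part of these markers in the results above was not tested.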

How the data were processed

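RNA was prepared with the RNeasy Plus Mini Kit and polyA-selected, per the labels' protocols. The authors deposited 1 table per library with TPM values (length-normalised and summing to the same total in every library) for 24732 genes. The submitters' processing notes name TopHat 1.4.1, Bowtie, featureCounts 1.5.0, SAMtools 1.4, deepTools 3.0.1 and mm9. Their roles, the gene annotation and the strand setting are not given in the sources used here, so reads of overlapping and antisense genes may be mixed. The ATAC-seq and ChIP-seq data were not used here.

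TPM were divided by median-ratio factors per library. Genes at TPM 1 or more in at least 3 of the 8 libraries were tested on log2(scaled TPM + 1), where the pseudocount of 1 understates changes of low genes, with limma 3.58.1 (R 4.3.3) and a mean-variance trend. P-values were adjusted by Benjamini-Hochberg over all 10491 genes. The script was tested on simulated data. Whole reads were recovered from the TPM steps (tolerance 0.01) for depth and for a voom fit.

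Groups came from the labelled genotype and treatment, and mouse sex from Y-linked transcripts. The members, gene lists and tests were chosen with earlier results of these data known. The genes named are the Ikaros family, the 15 most raised and 15 most lowered called genes (mean of at least 5 scaled TPM in the higher group, no overlap between groups, no antigen receptor, sex-linked or clone-named gene), and some of up to 6 called members with the smallest adjusted p and 3 uncalled members with the highest TPM in each list. Others are marked as chosen after their values were seen. Results for some genes are not reported here.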

Additional observations from a re-analysis of the deposited data

Results flagged for a closer look

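In 165 looks at the 5 HEL-exposed libraries (132 named genes and 33 list levels), 9 had 1 library far from the rest by Dixon's test, and chance alone marks about 1 group in 20. HEL replicate 3 held the highest values of Spred1 (1.52 scaled TPM) and Cdk6 (4.29), the lowest of Il10ra (127), and the highest mean log2 level of the anergy-associated genes (4.401). HEL replicate 5 held the lowest values of Npc2 (131 scaled TPM) and Notch1 (23.5), the highest of Irak2 (60.9), and the lowest mean log2 level of the cytokine receptor list (5.95). The lowest value of Eprs, at 26.2 scaled TPM, was in HEL replicate 4. Groups of 3 libraries were not looked at in this way.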

How the results depend on the processing

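With the settings of the report 2505 genes were called, 1073 higher and 1432 lower, and 237 with at least a 2-fold difference. TPM as deposited, without scaling, gave 4425, with 3860 higher and 565 lower. The 75th percentile scaling gave 2535, with 54.1% of them higher against 42.8%. A term for mouse sex gave 1353 (550 higher, 803 lower). The 2 male HEL libraries alone, a choice made after the data were seen, gave 385 (172 higher, 213 lower). Leaving out 1 library at a time gave 1488 to 3360 genes, 660 to 1502 higher, 828 to 1858 lower, and 208 to 298 at 2-fold, with the lowest counts of calls without anergic replicate 1. The 2-fold count was 365 with a pseudocount of 0.1, 103 with 5, and 374 with voom on recovered reads. The cause of these shifts was not tested, except that leaving out libraries leaves fewer samples. No called gene given in the text with its log2 difference changed direction in any of these fits, but many lost their call. Of these 127 genes, 24 lost it with the sex term and 73 with the 2 male HEL libraries alone. In that last fit 17 of 73 ribosomal protein genes and 0 of 37 oxidative phosphorylation genes were lower, beside 2.01% over all genes. Ikzf1, which was not called, changed sign without anergic replicate 1 (-0.08) or 2 (-0.12) and without HEL replicate 2 (-0.014) or 5 (-0.0035), and was 0.24 without anergic replicate 3, and Nab2, also not called, with the sex term (-0.058) and in male libraries (-0.061). No paired analysis was possible because the labels give no replicate number that the groups share.

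With 3 anergic libraries of 3 Ikzf1 genotypes, genotype and replicate cannot be told apart. Sex differs between the groups in 3 of 5 HEL libraries. At 14126570 to 20181056 reads, genes below 1 TPM were not tested.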
